A study of Pan troglodytes with 38 samples.

Results

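The genes described here are 10 markers of the endothelium, the cell layer that lines blood vessels and the chambers of the heart: PECAM1, CDH5, KDR, FLT1, TEK, TIE1, CLDN5, VWF, EMCN and ENG. They were chosen by name, and each was looked up by its Ensembl identifier in the table of read counts per annotated chimpanzee gene. Of the 10 genes, 9 were found in this table of 31373 genes, of which 18040 carry a symbol. CLDN5, a tight junction protein of endothelial cells, has no identifier in the table of gene names used here and has no value.

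Endothelial cells depend on vascular endothelial growth factor (VEGF), which is sensed through the receptor tyrosine kinases KDR and FLT1, and on the angiopoietins, which act through TEK and its relative TIE1. VE-cadherin (CDH5), CLDN5 and PECAM1 hold neighbouring endothelial cells together, EMCN is a sialomucin of their surface, ENG is a co-receptor for bone morphogenetic proteins and transforming growth factor beta, and VWF is the clotting protein that endothelial cells store and release. In heart muscle, capillaries run beside nearly every muscle fibre, so these transcripts can be read in RNA of whole heart tissue.

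RNA was extracted from post-mortem heart tissue of 38 chimpanzees, a single group in the labels, and no treatment was compared. By the study's pedigree some of the animals are first-degree relatives, and the tests treat all animals as independent. Polyadenylated RNA was sequenced from libraries made with the TruSeq v2 kit, which does not mark strand, so antisense reads cannot be told apart. The study's sample table gives the year of RNA extraction, 2016 for 17 animals (10 females and 7 males) and 2018 for 21 animals (12 females and 9 males), and it was used here as a technical batch. By that table all libraries of 2016 had been published before and were sequenced again, all animals noted as infected with a hepatitis virus or exposed to HIV were of 2018, and ages ran from juveniles to aged adults with several not given. New and published libraries therefore cannot be told apart from the year, and the part of infection and age in the comparison of years was not tested. The animals lived at primate centers or a zoo, with 9 animals from Yerkes in 2016 and 12 in 2018. Human samples were not analysed here, so no species comparison was made.

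Levels are given as CPM, the count of a gene scaled to a total of 1e+06 reads on exons orthologous between human and chimpanzee. These exon totals were between 14408012 and 81603350 reads per animal, with a median of 41226040. The lowest count of any of the 9 genes in any animal was 576 reads, for TEK in 4X0339, so that the counting error was at most 4.17% of a value. All 12 cardiomyocyte markers were detected, with a summed level between 14861 CPM in Little_R and 148138 CPM in 522 and a median of 112019 CPM. The next lowest sums were 31106 CPM in 537 and 36780 CPM in 495. The study names 537 and Little_R as outlier samples in its species comparisons on small subsets of animals, and kept both in its full comparison. These animals had mitochondrial shares of 60.1% and 48.3% of all gene counts, against a median of 30.4%. The levels, the tests, the pairwise correlations and the dispersions of the 9 genes were also computed without them, whereas the nearest genes and the list medians of r and of dispersion were not.

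All 9 endothelial genes were read in every heart, and none passed the test of a difference between extraction years. By edgeR's quasi-likelihood test with sex in the model, 0 of 9 genes passed an adjusted p of 0.05, where 15.8% of 15392 genes tested did (11.1% higher and 4.68% lower in 2018). At an unadjusted p below 0.05 the count was 1 gene, TIE1, where 4703 of the 15392 genes tested were below it. The unadjusted counts by edgeR given below for lists between the years have this same background. DESeq2 called 0 of 9 as well, with 1 gene at an unadjusted p below 0.05, where it called 19.1% of all genes (14.3% higher and 4.83% lower). In simulated counts for 38 animals of these library sizes, 155 of 199 genes changed 2-fold between the years and 59 of 199 changed 1.5-fold were found, so that smaller differences could be missed.

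**Figure D1:**
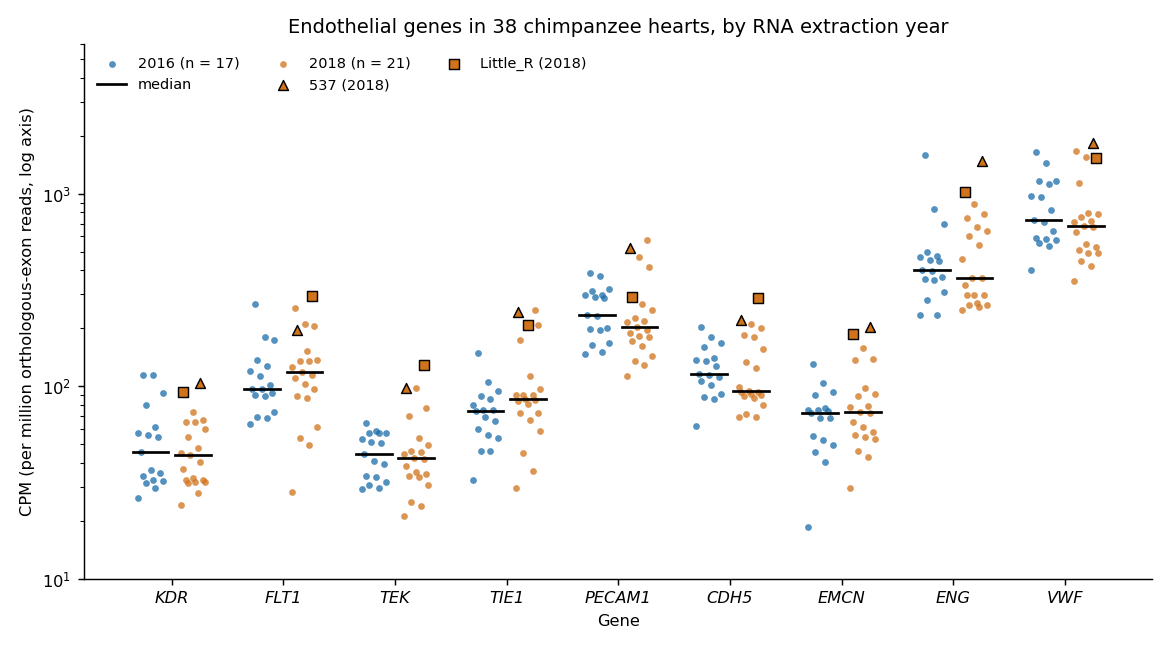
Level of each endothelial gene in CPM on a log axis, with 1 point per animal, 17 animals of 2016 in blue and 21 of 2018 in orange, and a line at the median of each year. The years overlap for every gene, and 537 (triangle) and Little_R (square) lie among the 5 highest animals for 8 of the 9 genes each.

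KDR, the main signalling receptor for VEGF in endothelial cells, ranged from 26.2 to 115 CPM in RNA of 2016 with a median of 45.6 CPM. In RNA of 2018 its lowest, median and highest levels were 24.3, 44.1 and 104 CPM. Its highest animals were 549 and 95A014, both of 2016, and the lowest was 529 of 2018, and the years overlapped over almost the whole range. The log2 difference of 2018 minus 2016 was -0.18 (SE 0.19, adjusted p = 0.545 by edgeR).

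FLT1, a receptor that binds VEGF tightly and also exists as a secreted decoy, ranged from 63.6 to 267.1 CPM in 2016 (median 97.1 CPM) and from 28.2 to 293 CPM in 2018 (median 118 CPM). The highest animals were Little_R, MD_And and 529, and 676 was the lowest, with the next animal at 49.7 CPM. 529 was thus the lowest animal for KDR and the third highest for FLT1. FLT1 had a log2 difference of 0.11 between the years (SE 0.21, adjusted p = 0.756 by edgeR).

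Of 8 VEGF ligands and co-receptors, 3 were higher in 2018 and 0 were lower, where 11.1% of all genes were higher and 4.68% lower. These were FLT4, the VEGF receptor of lymphatic endothelium, at a log2 difference of 1.42 (SE 0.35, adjusted p = 0.0042 by edgeR), VEGFD at 1.03 (SE 0.32, adjusted p = 0.0223) and VEGFA, the main ligand of KDR, at 0.63 (SE 0.20, adjusted p = 0.0269). VEGFA took the most reads of the list, with a median of 192 CPM in 2016 and 286 CPM in 2018. VEGFA and FLT4 were still called when 537 and Little_R were left out (log2 differences of 0.68 and 0.87), while VEGFD was then at 0.61 with an adjusted p of 0.109 by edgeR. The median log2 difference of the list was 0.55, against -0.010 for all genes tested.

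TEK, the angiopoietin receptor also called TIE2, ranged from 29.2 to 64.6 CPM in 2016 (median 44.6 CPM) and from 21.1 to 129 CPM in 2018 (median 42.2 CPM). The medians were close, while the animals of 2018 reached both further down and further up: Little_R, 537 and 495 were the highest and 676 the lowest. The log2 difference between the years was 0.086 (SE 0.16, adjusted p = 0.756 by edgeR), and it was -0.054 without 537 and Little_R.

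TIE1, which pairs with TEK and has no ligand of its own that is firmly established, lay between 32.7 and 149 CPM in 2016 (median 74.1 CPM). In 2018 it lay between 29.5 and 249 CPM (median 86.2 CPM). The 5 highest animals, all of 2018, had more TIE1 than any animal of 2016. They were 495, 537, Little_R, 4X0354 and 558, at 249, 243, 209, 208 and 173 CPM. TIE1 had the largest difference between years among the 9 genes, 0.44 on the log2 scale (SE 0.18, unadjusted p = 0.0199, adjusted p = 0.0923 by edgeR), and did not pass the threshold. Leaving out 537 and Little_R gave 0.34 (SE 0.18, adjusted p = 0.209). In the table of reads on orthologous exons TIE1 gave 0.44 with an adjusted p of 0.0813.

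Of 7 other genes of the angiopoietin pathway, 0 passed the test between years by edgeR, with 1 at an unadjusted p below 0.05, where the median log2 difference was -0.065. DESeq2 called 1 of them lower. PTPRB, a phosphatase that dampens TEK, took the most reads, from 18.98 to 193 CPM with a median of 69.5 CPM. ANGPT1, the ligand that activates TEK and a gene named after its values were seen, had a median of 2.20 CPM in 2016 and 1.38 CPM in 2018, with a log2 difference of -0.77 (SE 0.28, adjusted p = 0.0547 by edgeR). It was at -0.87 with an adjusted p of 0.0355 by edgeR when 537 and Little_R were left out.

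PECAM1, an adhesion molecule at the contacts between endothelial cells that is also found on platelets and leukocytes, ranged from 148 to 389 CPM in 2016 (median 234 CPM) and from 114 to 572 CPM in 2018 (median 204 CPM). The highest animals were 4X0354 and 537, and the lowest was 503. Little_R stood at 292 CPM, inside the range of 2016. The log2 difference was -0.11 (SE 0.16, adjusted p = 0.656 by edgeR).

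CDH5, the cadherin of endothelial adherens junctions, ranged from 62.5 to 202 CPM in 2016 (median 116 CPM) and from 69.1 to 286 CPM in 2018 (median 94.2 CPM). Little_R and 537 were the highest and 88A020 the lowest. Its log2 difference of -0.027 (SE 0.14, adjusted p = 0.916 by edgeR) was the smallest of the 9 in size.

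Among 16 genes of endothelial junctions that other cells also use, 1 was higher and 3 were lower in 2018, against 11.1% and 4.68% of all genes. CD99 was at -0.39 (SE 0.10, adjusted p = 0.0076 by edgeR), JUP, the plakoglobin of desmosomes and adherens junctions, at -0.44 (SE 0.13, adjusted p = 0.0181), and CTNNA1, the catenin that ties cadherins to actin and the gene of the list with the most reads (median 430 CPM), at -0.38 (SE 0.13, adjusted p = 0.037). CGN was higher, at 2.43 (SE 0.63, adjusted p = 0.0067), from medians of 0.252 and 0.552 CPM. When 537 and Little_R were left out, CD99 and JUP passed at adjusted p of 0.0041 and 0.0481 by edgeR, and CTNNA1 and CGN did not, at 0.068 and 0.0688.

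EMCN, the endothelial sialomucin, ranged from 18.5 to 131 CPM in 2016 (median 72.6 CPM) and from 29.5 to 203 CPM in 2018 (median 73.4 CPM). The lowest animal was 570 of 2016, and 537, Little_R and 4X0354 were the highest. The log2 difference was 0.25 (SE 0.18, adjusted p = 0.347 by edgeR), and 0.13 without 537 and Little_R.

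ENG ranged from 235 to 1593 CPM in 2016 (median 400 CPM) and from 249 to 1489 CPM in 2018 (median 366 CPM). 549 of 2016 and 537 of 2018 stood far above the others, and the third animal, Little_R, was at 1021 CPM. Its log2 difference was 0.034 (SE 0.21, adjusted p = 0.931 by edgeR), and -0.11 without 537 and Little_R. Of 12 genes that signal with ENG as receptors, ligands, SMAD proteins or their targets, 0 passed the test by edgeR and 0 by DESeq2, with a median log2 difference of 0.017. In edgeR 5 of them had an unadjusted p below 0.05, where 4703 of 15392 genes tested did. TGFBR2, a receptor for transforming growth factor beta, took the most reads of that list, at a median of 270 CPM.

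VWF ranged from 403 to 1639 CPM in 2016 (median 735 CPM) and from 353.6 to 1831 CPM in 2018 (median 678 CPM). The highest animals were 537, 495 and 95A014 and the lowest was 529, which was also lowest for KDR. Its log2 difference was -0.16 (SE 0.18, adjusted p = 0.574 by edgeR), and -0.076 (SE 0.19, adjusted p = 0.809) in the table of reads on orthologous exons. Reads of VWF could include some from a partial copy of the gene of the kind known in the human genome, which was not tested.

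Levels of different genes can be compared only per length, and of the 9 genes only TIE1 and VWF could be paired with a length of orthologous exons. In the Pan_tro_3.0 assembly, the 22 exon pieces of TIE1 on the plus strand of chromosome 1 span 42788428 to 42810518 and hold 6688 bases. The 41 pieces of VWF on the minus strand of chromosome 12 span 6220219 to 6399749 and hold 7070 bases. In CPM per kilobase, TIE1 was at 14.6 ± 8.83 (SD, n = 38) and VWF at 101 ± 51.6 (SD, n = 38). VWF was above TIE1 in 38 of 38 animals, by a mean of 2.83 on the log2 scale (SD 0.57), with the smallest difference of 1.34 in 529.

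Over all 38 animals the coefficient of variation was between 40.2% for CDH5 and 61.7% for ENG. EMCN and FLT1 had the widest spans, with the highest level 10.97 and 10.4 times the lowest. Their order was the other way round without 537 and Little_R (8.52 and 9.46 times) and with TMM (10.6 and 10.97 times). CDH5 had the narrowest, at 4.57 times.

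The same few animals were high for most of the genes. 537 and Little_R were among the 5 highest for 8 of 9 genes each, 495 and 4X0354 for 7 each, 95A014 for 5 and 558 for 4. All of these but 95A014 were of 2018 and had exon totals between 14408012 and 21335230 reads, the 5 lowest of the 38 animals, and mitochondrial shares between 42.99% and 60.1%. The next lowest totals were those of 4X0339 (24038347 reads) and 529 (26120173 reads), also of 2018, with mitochondrial shares of 51.7% and 52.7%. Of these, 4X0339 was among the 5 lowest for 3 genes, and 529 among the 5 highest for 2 and the 5 lowest for 2. At the other end, 476, which had the highest exon total, and 522 were among the 5 lowest for 5 genes each. When counts were scaled by edgeR's TMM factors instead, 537 and Little_R stayed among the 5 highest for 8 genes each, 95A014 and 4X0354 for 6 each, and 495 and 558 for 3 each, while 570 was among the 5 lowest for 6 genes.

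To describe these animals, each gene's log2 CPM was turned into a z score and the 9 z scores were averaged per animal. The score was highest in 537 at 1.93 and lowest in 476 at -1.02. Within the 21 animals of 2018 it had a Pearson r of -0.80 with the log2 exon total (Spearman's rho -0.69) and -0.71 without the 2 animals farthest from the median total. In the 17 animals of 2016 the same r was -0.14 (rho -0.19). With the mitochondrial share r was 0.64 in 2018 (rho 0.37) and -0.15 in 2016 (rho -0.26), and without 537 and 558 it was 0.47 in 2018. The difference between the years was not tested, and all these values share the exon total as the scale. With TMM as the scale, r in 2018 was -0.76 with the log2 exon total (rho -0.61) and 0.62 with the mitochondrial share (rho 0.38). The same values of r in 2016 were -0.13 and 0.058. The cause of these relations was not tested.

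Markers of some other heart cells moved with the score in 2018. The summed cardiomyocyte markers had r = -0.82 with it in 2018 (rho -0.65), or -0.69 without 537 and Little_R, the animals farthest out, and r = -0.36 in 2016 (rho -0.46, or r = -0.63 without 4x0025 and 570). On the TMM scale r was -0.79 in 2018 (-0.58 without 537 and Little_R) and -0.068 in 2016 (rho -0.15, or r = -0.44 without 4x0025 and 570). Fibroblast markers went the other way, with r = 0.76 in 2018 (0.54 without 537 and Little_R) and 0.38 in 2016 (0.21 without 4x523 and 549). On the TMM scale these were 0.68 (0.33 without 537 and Little_R) and 0.29 (0.14 without 4x523 and 549). In 2018 the sums of pericyte and smooth muscle markers had r = 0.75, of adipocyte markers -0.78, of macrophage markers 0.53, of red cell markers 0.50, of platelet markers 0.46, of Schwann cell markers 0.25 and of T and NK cell markers 0.16, and in 2016 these 7 sums lay between -0.17 and 0.32. Most of the adipocyte sum was PLIN4 (medians of 244 and 246 CPM), and over all animals the 3 adipocyte markers tested had a median r of -0.046 with the score. Most of the platelet sum was GP1BB (medians of 30.4 and 34.1 CPM). The r of macrophage markers in 2018 was 0.30 without 495 and 537 and 0.32 on the TMM scale. The sum of the fibroblast markers was 20936 CPM in Little_R and 18923 CPM in 537, against a median of 3807 CPM. In tissue RNA, fewer cells of a type and less RNA per cell cannot be told apart, and the part of cell make-up and depth in the endothelial levels was not tested.

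The levels of the endothelial genes were correlated over animals, which share the scaling, depth and make-up of each tissue piece. With log2 CPM centred within extraction year, all 36 pairs among the 9 genes had a positive Pearson r, from 0.35 for KDR with FLT1 to 0.80 for PECAM1 with VWF, and the median was 0.58 (SE 0.077 over 1000 sets of animals drawn with replacement, median Spearman's rho 0.52). TEK with EMCN (0.75), CDH5 with TIE1 (0.76) and CDH5 with ENG (0.74) were also among the closest. KDR and FLT1, the 2 VEGF receptors, had the lowest r under this scaling with all animals, whereas TEK with ENG was lowest with TMM (0.22, against 0.25 for KDR with FLT1) and without 537 and Little_R (0.19 against 0.23). TIE1 had the highest median r with the other 8 genes, 0.69, and KDR the lowest, 0.50.

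**Figure D2:**
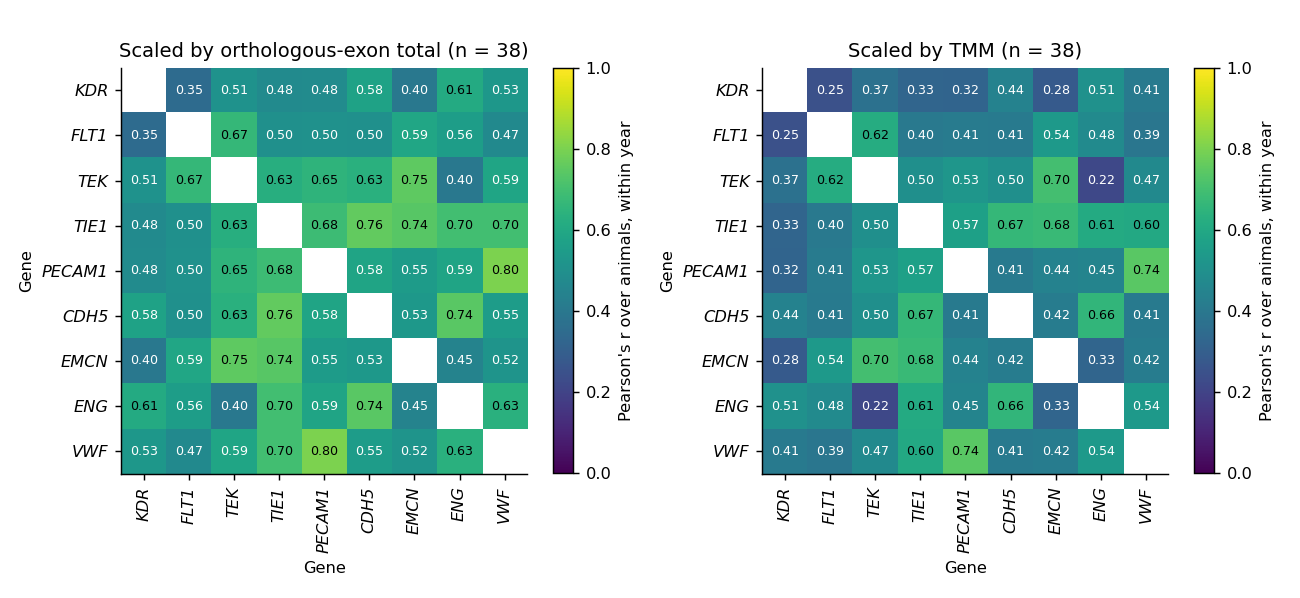
Pearson's r for each pair of the 9 genes over 38 animals, centred within extraction year, with counts scaled by the orthologous exon total (left) and by TMM (right). PECAM1 with VWF is the highest pair in both, at 0.80 and 0.74, and the row of KDR is among the lowest.

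The size of these correlations rested on the scaling and on a few animals. The median over the 36 pairs was 0.45 with TMM scaling and 0.48 without 537 and Little_R. It was 0.36 with TMM and without both animals, where TEK with ENG was at -0.022 and PECAM1 with VWF stayed at 0.73. In the authors' normalized matrix the median was 0.24, but over 37 animals (MD_And is absent) and without centring within year. The median was 0.65 in the 21 animals of 2018 and 0.43 in the 17 of 2016. All genes tested had a median r of 0.17 with VWF and of 0.22 with PECAM1 under the first scaling and of -0.010 and 0.0068 with TMM. Ranked against all 15391 other genes, the partner closest to a gene from among the 9 was at rank 2 for VWF (PECAM1), 8 for PECAM1 (VWF), 20 for FLT1 (TEK), 31 for EMCN (TEK) and 50 for KDR (ENG). This partner was at rank 55 for TEK (EMCN), 130 for ENG (CDH5), 262 for TIE1 (CDH5) and 281 for CDH5 (TIE1). Of the 72 ordered relations among the 9 genes, 44.4% lay in the top 5% of all genes with either scaling.

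Each gene was also set beside all others to find its closest relatives. EMCN went with MYCT1 (r = 0.88), CALCRL (0.86) and RAMP2 (0.85), where CALCRL and RAMP2 form the receptor for adrenomedullin. TEK went with the adhesion receptors ADGRF5 (0.84) and ADGRL4 (0.83) and with TMTC2 (0.83). TIE1 was nearest to PLCG1 (0.89), a phospholipase that acts downstream of VEGF receptors, EFNB2 (0.88) and NYNRIN (0.88). CDH5 was nearest to CYTH3, NRP1 and CDC42EP1 (all 0.88). PECAM1 was nearest to ENDOD1 (0.88) and CMAH (0.82), followed by a gene without a symbol, and VWF to TCN2 (0.82), PECAM1 and GPR12. ENG went with TDRP (0.84), CYGB (0.83) and LRRC32 (0.83). FLT1 went with NDRG1 (0.76), a gene known to be induced by low oxygen, ARL6IP1 (0.73) and PPP1R16B (0.71). KDR had the loosest neighbours, ROBO4 (0.70), a receptor of endothelial cells, DNAJC9 and SNRNP40 (both 0.70).

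Outside the 9 genes, those most like their mean z score were ESAM, an adhesion molecule of endothelial junctions (r = 0.89, rho 0.81), and EFNB2, the ephrin of arterial endothelium (r = 0.89, rho 0.85). They were followed by KCTD15, TMOD3, CNRIP1, ITGA1, IQGAP1, RAB32, ADGRL4, EHD2, GNG11, SHROOM4, TDRP, ARAP3 and ARL6IP1, all at r between 0.86 and 0.88. Of these 15 genes, 4 (ESAM, EFNB2, ADGRL4 and GNG11) were on the endothelial lists used here, 0 were on the marker lists of other cells, and 11 were also among the 15 highest with TMM. Without the 9 genes, the endothelial lists held 167 of the 15392 genes tested. The marker lists held fewer, so the 0 says little about other cells. The 5 genes with the most negative r were P2RY2, a receptor for extracellular nucleotides (-0.81), OGDH, an enzyme of the citric acid cycle (-0.80), MAPK4 (-0.80), BZW2 (-0.78) and HRC, a calcium-binding protein of the sarcoplasmic reticulum (-0.77). 1 of the 5, P2RY2, was also among the lowest 5 with TMM. Without 537 and Little_R, ESAM was at 0.83, EFNB2 at 0.86, P2RY2 at -0.71 and HRC at -0.65. With TMM and without both animals these were at 0.74, 0.82, -0.74 and -0.45.

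Genes of the other endothelial lists mostly followed the score. Over 167 such genes the median r was 0.57, where all genes tested had 0.23, and with TMM these were 0.46 and -0.0053. The highest list medians were 0.73 for 10 genes of the Notch pathway, 0.71 for 30 other endothelial genes, 0.65 for 22 transcription factors and 0.64 for VEGF ligands and co-receptors. The lowest were 0.38 for the angiopoietin pathway, 0.39 for adhesion and activation, which includes SELE, VCAM1 and ICAM1, and 0.40 for junctions. Fibroblast markers reached 0.62 and pericyte and smooth muscle markers 0.50, so high values were not particular to endothelial lists. Cardiomyocyte markers had a median of -0.59, with 11 of 12 below 0.

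**Figure D3:**
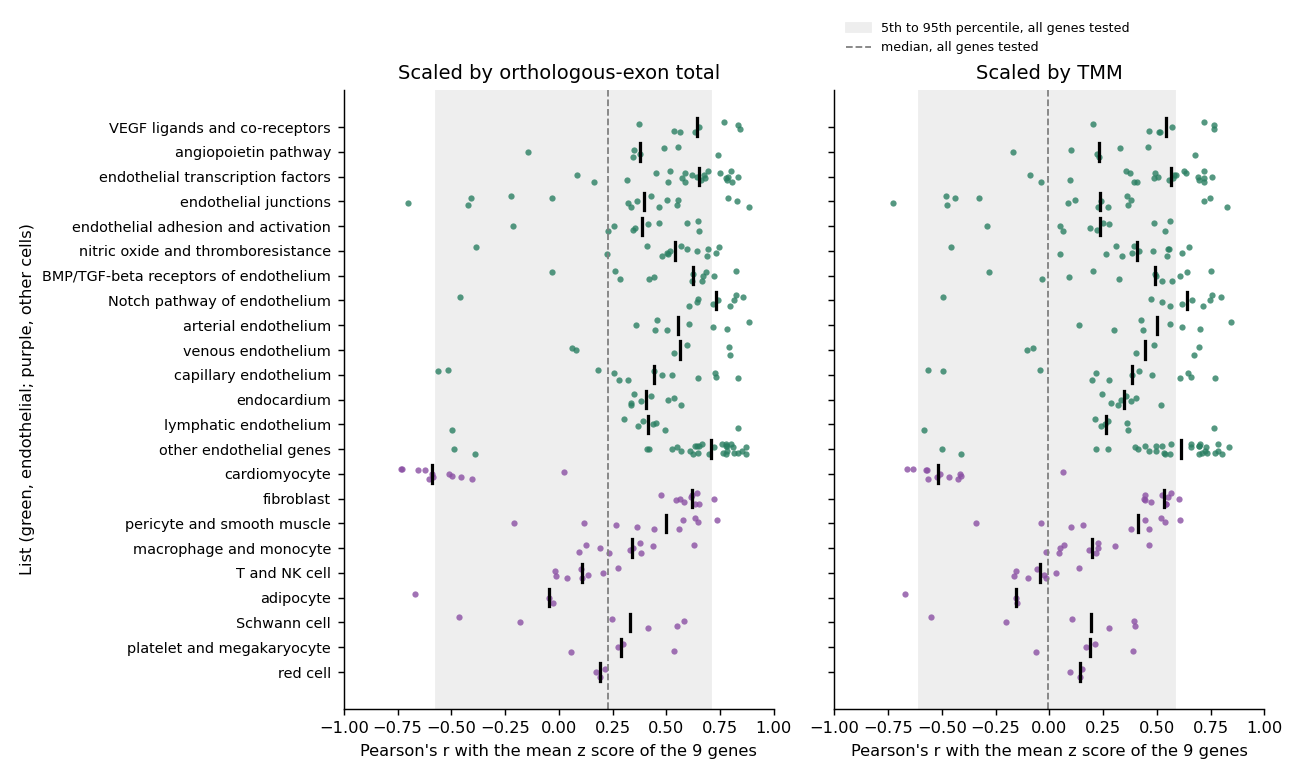
Pearson's r over 38 animals between each gene of a list and the mean z score of the 9 endothelial genes, with 1 point per gene and a bar at the list median, for both scalings. The shaded band holds the 5th to 95th percentile of all 15392 genes tested and the dashed line is their median (0.23 left, -0.0053 right). Cardiomyocyte markers lie at the low end and most endothelial lists to the right of the dashed line.

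Between years, 22 of the 167 endothelial list genes were higher and 7 were lower in 2018, or 17.4%, near the 15.8% of all genes. With 537 and Little_R left out the counts were 15 and 8, or 13.8%, where 1990 of 15308 genes were called. By list, 7 of 22 transcription factors were higher and 0 lower, where 11.1% of all genes were higher and 4.68% lower. TAL1, KLF2, PPARG and FOXF1 had the smallest p (adjusted p of 2e-04, 0.0018, 0.0018 and 0.0035 by edgeR), at log2 differences of 1.79 (SE 0.33), 1.07 (SE 0.24), 0.60 (SE 0.13) and 2.24 (SE 0.54). KLF2, a factor induced by blood flow, took the most reads (medians of 89.5 and 142 CPM). FOXF1 had a median of 1.05 CPM, and its log2 difference without 537 and Little_R was 1.042, with an adjusted p of 0.068 by edgeR. In the Notch pathway 4 of 10 were higher, NOTCH4, the Notch receptor of endothelium (1.33, SE 0.27), JAG2 (0.65, SE 0.15), NOTCH1 (1.09, SE 0.32) and DLL1 (1.09, SE 0.32), and 0 were lower. HEY2 took the most reads of the list (median 81.0 CPM). Without 537 and Little_R, NOTCH1 was at 0.56 with an adjusted p of 0.0614, and the other 3 were still called.

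The list of other endothelial genes holds EMCN and TEK as well. Of its 32 genes, 5 were higher and 2 lower, where 11.1% of all genes were higher and 4.68% lower. EGFL7, which endothelial cells secrete, was at 1.52 (SE 0.32, adjusted p = 0.0011 by edgeR), with medians of 133 CPM in 2016 and 259 CPM in 2018. ARHGEF15 was at 0.91 (SE 0.23), RASIP1 at 0.92 (SE 0.27) and PODXL at 0.58 (SE 0.18). S1PR1, the receptor for sphingosine 1-phosphate, was lower at -0.52 (SE 0.16, adjusted p = 0.0235) and CLEC14A at -0.48 (SE 0.16, adjusted p = 0.0364). RASIP1, PODXL and CLEC14A did not pass without 537 and Little_R, at adjusted p of 0.0551, 0.0702 and 0.0661. EPAS1, a factor induced by low oxygen, took the most reads of this list, at a median of 508 CPM. Among 14 genes of nitric oxide and thromboresistance, CAV2 alone passed, at -0.54 (SE 0.15, adjusted p = 0.0123), and CAV1 took the most reads (median 496 CPM). Of 10 genes of adhesion and activation, 0 passed by edgeR and 0 by DESeq2, with 1 at an unadjusted p below 0.05 in edgeR, and TNFRSF1A took the most reads (median 87.3 CPM).

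Macrophage and monocyte markers, which share PECAM1 as a surface protein with endothelium, also moved with the year: 8 of 10 were lower in 2018 and 0 higher, where 4.68% of all genes were lower, with a median log2 difference of -1.42. C1QC was at -1.59 (SE 0.33, adjusted p = 8e-04 by edgeR), MRC1 at -1.46 (SE 0.32), C1QB at -1.69 (SE 0.37) and CD14 at -0.99 (SE 0.23). The summed level was 104 to 990 CPM in 2016 (median 206 CPM) and 38.2 to 402 CPM in 2018 (median 94.7 CPM). Of the cardiomyocyte, fibroblast, T and NK cell, and red cell markers tested, 0 of 12, 0 of 10, 0 of 8 and 0 of 3 passed by edgeR, with 0 at an unadjusted p below 0.05 and 0 called by DESeq2. Of 10 pericyte and smooth muscle markers 1 was higher, where 11.1% of all genes were. It was PDGFRB at 0.55 (SE 0.18), which did not pass without 537 and Little_R (adjusted p = 0.086 by edgeR). That list had a median log2 difference of -0.068 with 4 of 10 genes above 0, and DESeq2 called 1 higher and 1 lower. Of 3 adipocyte markers tested PLIN1 (2.86, SE 0.96) and CIDEC (2.64, SE 0.87) were higher, neither of them called by DESeq2. Among 4 platelet markers ITGA2B (1.19, SE 0.35) and TUBB1 (0.75, SE 0.24) were higher, the latter not without 537 and Little_R (adjusted p = 0.0526 by edgeR). Among 6 Schwann cell markers NCAM1 (-0.66, SE 0.22) was lower, whereas 4 of the 6 lay above 0 and the list median was 0.27. DESeq2 called 1 Schwann cell marker higher and 1 lower. Whether these other cells have a part in the levels of the 9 genes was not tested.

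**Figure D4:**
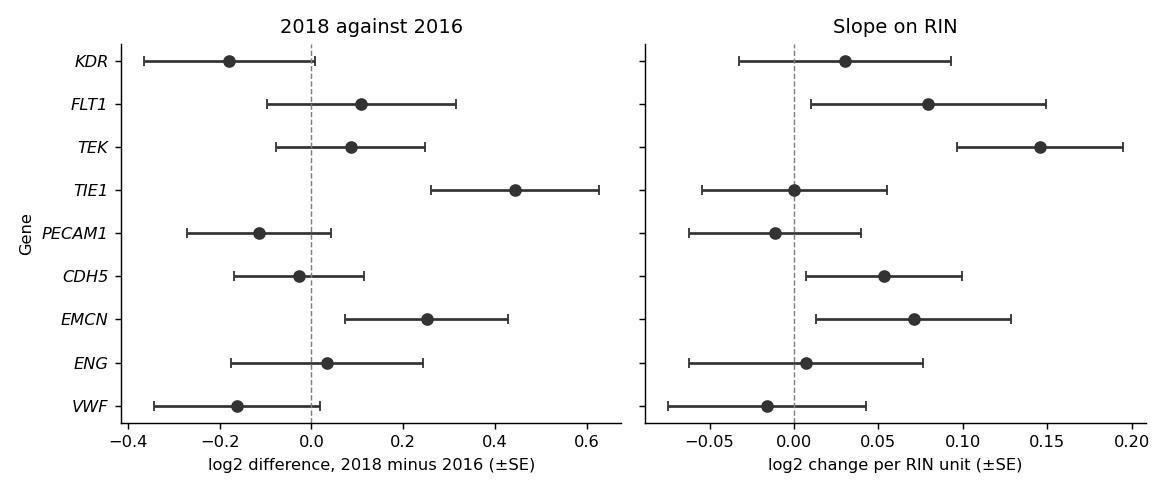
Log2 difference of 2018 minus 2016 (left) and log2 change per unit of RIN (right) for each of the 9 genes from edgeR, with bars of 1 SE. TIE1 lies farthest from 0 on the left at 0.44 and TEK on the right at 0.15, and neither passed an adjusted p of 0.05.

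The second technical measure given for each animal was the RIN, a score of how intact the RNA is, which lay between 2.5 and 8.4 with a median of 5.9. With extraction year and sex in the model, 0 of 9 endothelial genes had a slope on RIN that passed, and 1 did at an unadjusted p below 0.05. Among all 15392 genes edgeR called 0 (0%), with 2171 at an unadjusted p below 0.05, and DESeq2 called 201 (1.3%, with 0.641% higher and 0.66% lower), none of the 9 among them. In simulated data, 139 of 198 genes changed 1.5-fold per 2 units of RIN were found. TEK had the steepest slope, 0.15 on the log2 scale per unit (SE 0.049, unadjusted p = 0.0054, adjusted p = 0.176 by edgeR), and 0.083 (SE 0.046) without 537 and Little_R. The other 8 slopes lay between -0.016 for VWF and 0.079 for FLT1. In the 17 animals of 2016 alone, VWF had a slope of -0.36 per unit (SE 0.098, unadjusted p = 0.0018, adjusted p = 0.164) and PECAM1 one of -0.22 (SE 0.096, unadjusted p = 0.0377, adjusted p = 0.361), while in the 21 animals of 2018 they had slopes of 0.033 (SE 0.066) and 0.030 (SE 0.061). The difference between these slopes was not tested.

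Variability between animals was described by a measure like the study's, the dispersion of a gene, which is the residual of its ln overdispersion in a negative binomial model from the trend on mean level. Unlike the study, which fitted reads on orthologous exons, it was fitted here to counts per annotated gene with the orthologous exon total as the scale and no exon length. All 9 endothelial genes had a dispersion above 0, that is, more spread than the trend of 13111 genes at their mean level. TIE1 had the highest at 1.02 (SE 0.24, from 1000 sets of animals drawn with replacement) and ENG followed at 1.004 (SE 0.24), then FLT1 at 0.86 (SE 0.23), EMCN at 0.84 (SE 0.25), KDR at 0.68 (SE 0.18), VWF at 0.62 (SE 0.16), PECAM1 at 0.53 (SE 0.22), TEK at 0.49 (SE 0.27) and CDH5 at 0.40 (SE 0.19). Neighbours in this order differed by less than their SE. In rank among all genes they lay between the 70.1 percentile for CDH5 and the 86.5 percentile for TIE1, and their median dispersion was 0.68, where that of all genes was -0.11.

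The dispersions depended on the total used for scaling and less on single animals. With the total of all gene counts, which includes the mitochondrial reads, 5 of 9 were above 0 and the median was 0.012. With that total less the 13 mitochondrial genes, 9 of 9 were above 0 and the median was 0.56. Without 537 and Little_R, 9 of 9 were above 0, with a median of 0.78. In the animals of 2016 and of 2018 alone, 9 of 9 were above 0 each time, but KDR was at 1.43 in 2016 and 0.39 in 2018 and ENG at 1.55 and 0.85. Without Little_R, TEK was at 0.26 and CDH5 at 0.25.

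**Figure D5:**
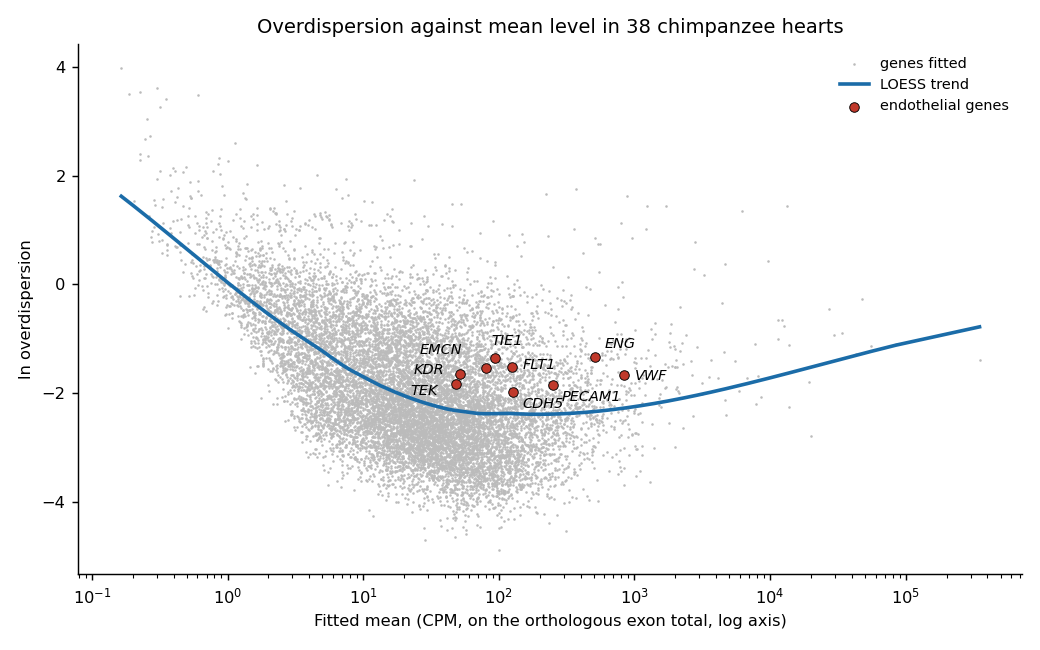
The ln overdispersion of each of 13111 genes (grey) against its fitted mean in CPM on a log axis over 38 animals, with the LOESS trend in blue and the 9 endothelial genes in red. All 9 points lie above the trend, from CDH5 at 0.40 to TIE1 at 1.02 above it.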

How the data were processed

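The authors extracted RNA from frozen heart tissue, sequenced polyadenylated RNA and aligned reads with STAR (2.6.1b per the labels) to Pan_tro_3.0. The deposited gene table holds each count per annotated gene, without normalization, and the deposited orthologous exon table holds each count from featureCounts 1.6.3. Each score in the deposited normalized matrix was made by the authors by standardizing and quantile normalizing log CPM, and 37 of its animals are samples analysed here. In all, 52 per-sample columns (49 human and 3 chimpanzee) are not of this series' samples and were left out. Extraction year, RIN, sex and center are from the study's sample table, and TIE1 and VWF were paired with orthologous exons through identifiers of a supplementary table.

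Levels (CPM) are gene counts scaled by the orthologous exon total, and log2 values used a pseudocount of 0.5. Year (with sex) and RIN (with year and sex) were tested with edgeR 4.0.16 (quasi-likelihood, TMM, filterByExpr) and DESeq2 1.42.0, adjusted by Benjamini-Hochberg over all genes tested. Each sample is a separate animal, some of them close relatives, which the tests do not model. Overdispersion was fitted with MASS 7.3.60.0.1 for genes that reached 6 CPM in any animal, with LOESS of span 0.75, and SEs came from 1000 sets of animals drawn with replacement. Correlations are descriptions without p. No animals had identical counts. The dispersion step was tested on simulated data, where true and estimated ln overdispersion had r = 0.979 over 2000 genes.

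Named genes are the 9 genes found, the 4 genes of each list with the smallest p in each direction, the gene of each list with the most reads, and the genes with the highest or lowest r. The members and lists were chosen with earlier results of these data known. Alternatives were other library sizes, filters, covariates, tools and sets of animals, and TMM without 537 and Little_R was added after seeing the data.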

Additional observations from a re-analysis of the deposited data

How the results depend on the processing

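Genes called between years numbered 3949 with DESeq2, 3727 with no filter on low counts and 248 in animals from Yerkes alone (9 against 12), and genes called on RIN numbered 201 with DESeq2, 2 with no filter and 2 in the earlier year alone. None of the 9 endothelial genes was called under any alternative to either test. Differences between years near 0 changed sign for PECAM1 at Yerkes (0.044), for TEK without 537 and Little_R (-0.054) and for ENG without the sex term (-0.0062), without 537 and Little_R (-0.11) and at Yerkes (-0.080). RIN slopes changed sign without 537 and Little_R for CDH5 (-0.0062), KDR (-0.030), TIE1 (-0.073) and ENG (-0.081), in the earlier year alone for CDH5 (-0.072), FLT1 (-0.12), TIE1 (-0.074) and ENG (-0.27), in the later year alone for PECAM1 (0.030) and VWF (0.033), without the sex term for TIE1 (-0.027) and ENG (-0.014), and with no filter for TIE1 (-0.0017). With the gene count total as library size, dispersions were -0.058 for PECAM1, -0.30 for CDH5, 0.42 for KDR, 0.26 for FLT1, -0.12 for TEK, 0.13 for TIE1, -0.058 for VWF, 0.012 for EMCN and 0.22 for ENG, and mean levels of all 9 genes were lower by a similar factor, for example 140.5 CPM for PECAM1 and 71.1 CPM for CDH5. Without mitochondrial genes in that total, CDH5 was at 0.15 and VWF at 0.37. In the earlier year alone KDR was at 1.43, TEK 0.23, VWF 0.97, EMCN 1.09 and ENG 1.55, in the later year alone KDR was at 0.39, and without 537 and Little_R VWF was at 0.80. The median correlation was 0.45 with TMM, 0.48 without 537 and Little_R, 0.36 with both, 0.43 in the earlier year alone and 0.24 in the authors' normalized matrix (37 animals, not centred within year). The cause of these changes was not tested. Leaving out each animal in turn moved no dispersion by more than its SE. No paired analysis was possible because the labels give a single group. Counting error was at most 4.17% for these genes, and other effects of depth were not tested.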

Other observations

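Lists of endothelial subtypes were set beside the same comparison of extraction years, where 11.1% of all genes were higher and 4.68% lower in 2018 by edgeR. Of 8 arterial and 6 venous genes, 0 passed the test by edgeR and 0 by DESeq2, with 0 and 1 at an unadjusted p below 0.05 in edgeR. The arterial gene with the most reads was CXCL12, from 42.3 to 836 CPM (median 169 CPM), and the venous one was EPHB4, the receptor of EFNB2, from 23.1 to 139 CPM (median 38.5 CPM). Of 14 capillary genes, KDR among them, 2 were higher in 2018. BTNL9 had a median of 42.3 CPM in 2016 and 85.5 CPM in 2018 (log2 difference 1.26, SE 0.27, adjusted p = 0.0011 by edgeR), and FABP4, a fatty acid carrier that adipocytes also make, had 233 and 472 CPM (0.80, SE 0.25, adjusted p = 0.0232). Both were still called without 537 and Little_R. SPARC took the most reads of that list, at a median of 623 CPM. Of 8 endocardial genes NPR3, a natriuretic peptide receptor, was lower in 2018 (log2 difference -1.68, SE 0.47, adjusted p = 0.012 by edgeR), from medians of 2.02 and 0.536 CPM. Of 8 lymphatic genes FLT4 alone passed by edgeR, and 2 were called higher by DESeq2.

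Median dispersion over these lists was 0.81 for arterial, 1.20 for venous, 1.20 for capillary (KDR among them), 0.90 for endocardial and 1.12 for lymphatic genes. It was 1.42 for adhesion and activation, with CCL2, a chemokine, highest at 2.97, and 1.27 for the Notch pathway, and 0.010 for junctions, with TJP1 lowest at -1.01 (CCL2 and TJP1 were named after their values were seen). The 9 endothelial genes had a median of 0.68, cardiomyocyte markers 0.69 and fibroblast markers 1.81.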
